A study of Mus musculus with 6 samples.

Results

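Of the 22989 rows in each RNA-seq table, 10 are followed here: genes known as targets of the transcriptional coactivator YAP and its DNA-binding TEAD partners, with YAP and 2 TEAD factors themselves. Members were taken by symbol, and each of the 10 symbols matched a single row. The targets are Ctgf, Cyr61, Ankrd1, Amotl2, Lats2, Axl and Crim1, and the regulators are Yap1, Tead1 and Tead4. All 10 reached 1 FPKM, a fragment count scaled for transcript length and library size, in both libraries of every comparison.

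The cells were C2C12, a mouse myoblast line labelled as strain C3H, grown in DMEM with 10% fetal bovine serum. Polyadenylated RNA was sequenced from myoblasts given the siRNA named siNS and left non-starved (the control library), from siNS myoblasts kept in HBSS, a salt solution, for a starvation of 4 h (the starved library), and from non-starved myoblasts given siRNA against the forkhead factor Foxk1 (the siFoxk1 library). Each group is 1 library of 1 cell line, all 3 carried an siRNA, and both comparisons use the same control library. The design sets starvation and Foxk1 depletion each against that control.

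YAP and its relative TAZ, encoded by Wwtr1, have no DNA-binding domain of their own and reach their target genes through the TEAD factors. In the Hippo pathway the MST kinases act on the LATS kinases, which phosphorylate YAP and keep it out of the nucleus. Serum factors, cell spreading and tension in the actin cytoskeleton are known to favour the nuclear form of YAP. In myoblasts YAP is known for sustaining proliferation. The tables hold transcript levels, and neither the phosphorylation nor the location of YAP was measured.

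With 1 library per group there is no spread between replicates and no test. The authors' 95% interval given with each FPKM value stands in its place. Values in 2 libraries are called apart when their intervals do not overlap, which compares libraries and not conditions. In 353 control, 340 starved and 289 siFoxk1 rows, 0 of them members, the value lay above its own upper limit. Such rows were kept in the shares over all rows. Differences are given as ratios of plain FPKM or as log2((FPKM + 1)/(FPKM + 1)), named the log2 difference, which understates the change of low genes. A row was compared if either library reached 1 FPKM. Across the members the interval reached between 13.9% (Yap1, control) and 23.5% (Tead1, starved) of the value to either side, taken as its mean half-width, and the read depth is unknown. FPKM summed to between 527673 and 566803 per library. The siRNA target Foxk1 was measured at 5.15 FPKM (4.29 to 6.02) with siFoxk1 and 9.09 FPKM (7.76 to 10.4) in the control, with intervals apart, and at 16.1 FPKM (13.3 to 18.9) in the starved library.

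The upstream DNA of the members is shown first, because TEAD factors recognise a short element, CATTCC, also called the M-CAT core. RefSeq promoter windows of build GRCm38.p6 matched 7 of the 10 members with 8 windows, and Ctgf, Tead1 and Tead4 had no entry. The 250 bases before each annotated start were searched for CATTCC on either strand (GGAATG on the other), with -1 as the base just before the start. The motif was present in 6 of the 8 windows, those of Cyr61, Ankrd1, Amotl2, Axl, Crim1 and Yap1, and in 12.6% of all 32851 windows of the table. Cyr61 and Ankrd1, which differed most from the control in the starved library among the genes with a window, are printed whole, on the gene strand, with the motif in capitals. The Cyr61 window lies at chr3:145649986-145650235 on the minus strand and that of Ankrd1 at chr19:36119845-36120094 on the minus strand.
Cyr61: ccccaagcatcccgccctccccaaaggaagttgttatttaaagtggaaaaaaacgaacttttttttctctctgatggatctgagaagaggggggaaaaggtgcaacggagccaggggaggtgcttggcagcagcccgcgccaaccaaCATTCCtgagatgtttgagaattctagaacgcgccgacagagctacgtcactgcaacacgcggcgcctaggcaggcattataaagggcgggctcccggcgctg
Ankrd1: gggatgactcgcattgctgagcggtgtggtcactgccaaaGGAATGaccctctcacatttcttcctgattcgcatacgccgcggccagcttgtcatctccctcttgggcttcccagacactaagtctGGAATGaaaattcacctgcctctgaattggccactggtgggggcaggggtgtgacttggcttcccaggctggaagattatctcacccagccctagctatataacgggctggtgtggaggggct
Cyr61 holds the motif at -103 to -98. Ankrd1 holds it at -210 to -205 and at -123 to -118, and 1.02% of all windows hold 2 or more matches.

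All 7 matches are set side by side below as 30 bases on the strand that reads GGAATG, in capitals, to compare the flanking bases. The coordinates are chr3:145650071-145650100 (plus strand) for Cyr61, chr19:36120037-36120066 (minus) for the distal and chr19:36119950-36119979 (minus) for the proximal Ankrd1 match, chr9:102717727-102717756 (minus) for Amotl2, chr7:25788949-25788978 (minus) for Axl, chr17:78200157-78200186 (plus) for Crim1 and chr9:8004720-8004749 (minus) for Yap1.
Cyr61: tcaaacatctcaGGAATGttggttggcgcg
Ankrd1 distal: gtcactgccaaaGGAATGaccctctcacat
Ankrd1 proximal: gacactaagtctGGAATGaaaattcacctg
Amotl2: gctgctatgccaGGAATGtgagagtttcag
Axl: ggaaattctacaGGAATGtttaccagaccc
Crim1: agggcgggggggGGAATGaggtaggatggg
Yap1: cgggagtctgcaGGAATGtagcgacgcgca
A T follows the motif in 4 of the 7 matches, those of Cyr61, Amotl2, Axl and Yap1, and an A follows it in Crim1 and both Ankrd1 matches. The longer form GGAATGT occurs on either strand in 3.25% of all windows. Neither the AP-1 motif TGANTCA (6.75% of all windows) nor the CArG box bound by serum response factor (1.47%) was found in any of the 8 member windows on either strand. These matches are descriptions of letters in a short window. Genes with a match included some that were lower, higher or overlapping in the comparisons below.

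Among the targets, levels in the control library spanned 6.17 to 455 FPKM. Ankrd1, a muscle ankyrin repeat protein found in the sarcomere and the nucleus, was the highest member in all 3 libraries and made up 49.4%, 41.7% and 29.0% of the summed FPKM of the 7 targets in the control, starved and siFoxk1 libraries. That sum was 920.0 FPKM in the control, 253 FPKM in the starved and 1015 FPKM in the siFoxk1 library. Tead4 was the lowest member in each library.

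Ctgf, which encodes a secreted matricellular protein of the CCN family, stood at 154 FPKM (124 to 177) in the control, 9.46 FPKM (7.33 to 11.3) in the starved and 261 FPKM (207 to 309.9) in the siFoxk1 library. No 2 of these 3 intervals overlap, with the starved library lowest and the siFoxk1 library highest. The starved value was 16.2-fold lower than the control, and the ratio of siFoxk1 to control was 1.70 (1.17 to 2.51 from the opposite limits of the intervals).

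Its CCN relative Cyr61, also a secreted matricellular protein, had intervals that overlapped those of Ctgf in all 3 libraries. It stood at 161 FPKM (131 to 188) in the control, 12.0 FPKM (9.60 to 14.3) in the starved and 246 FPKM (197 to 293) in the siFoxk1 library, again with all 3 intervals apart. The starved value was 13.3-fold lower and the siFoxk1 value 1.53 times the control (1.05 to 2.24). The level of Ctgf was 0.957, 0.786 and 1.06 times that of Cyr61 in the control, starved and siFoxk1 libraries.

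Ankrd1 had its highest level in the control and was lower in each of the other libraries. It stood at 455 FPKM (374 to 532) in the control, 105 FPKM (88.4 to 122) in the starved and 294 FPKM (239 to 348) in the siFoxk1 library, with all 3 intervals apart. The starved value was 4.32-fold and the siFoxk1 value 1.55-fold lower than the control. Ankrd1 was at 2.96 times the level of Ctgf in the control, 11.1 times in the starved and 1.13 times in the siFoxk1 library.

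Amotl2, an angiomotin family protein that binds YAP and holds it outside the nucleus, stood at 38.1 FPKM (32.2 to 44.0) in the control, 25.4 FPKM (20.5 to 30.4) in the starved and 82.1 FPKM (68.5 to 95.8) in the siFoxk1 library. All 3 intervals were apart, though the gap between starved and control was narrow. With the libraries scaled to the same sum of FPKM the starved and control intervals of Amotl2 overlapped. The siFoxk1 value was 2.16 times the control (1.56 to 2.98), the largest ratio of the 10 members in that comparison.

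Crim1, a transmembrane protein with cysteine-rich repeats, stood at 6.17 FPKM (5.14 to 7.19) in the control, 6.92 FPKM (5.61 to 8.22) in the starved and 12.3 FPKM (10.1 to 14.5) in the siFoxk1 library. The control and starved intervals overlapped and the siFoxk1 interval lay above both, at 2.00 times the control (1.40 to 2.82).

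The last 2 targets stayed within overlapping intervals of the control. Lats2, the Hippo kinase that phosphorylates YAP, stood at 16.4 FPKM (13.6 to 19.1) in the control, 12.9 FPKM (10.6 to 15.2) in the starved and 20.9 FPKM (17.0 to 24.9) in the siFoxk1 library. Its starved and siFoxk1 intervals were apart from each other. Axl, a receptor tyrosine kinase, stood at 90.4 FPKM (74.2 to 107), 80.7 FPKM (65.7 to 95.5) and 97.7 FPKM (78.8 to 117) in the same order, and all 3 of its intervals overlapped.

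**Figure D1:**
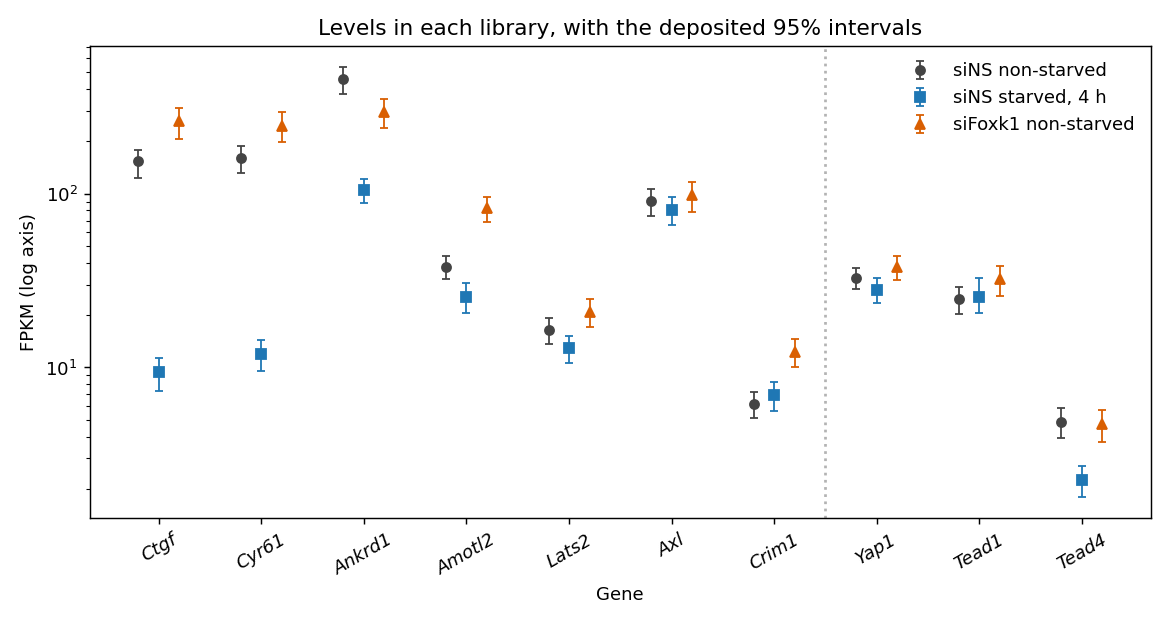
Level of each member (FPKM, log axis) in the 3 libraries, with the targets left and the regulators right of the dotted line. Points are the deposited values and bars the deposited 95% intervals. Ctgf and Cyr61 stand at 9.46 and 12.0 FPKM in the starved library, while Axl, Yap1 and Tead1 have overlapping intervals in all 3.

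Yap1 and Tead1 come first among the regulators. Yap1 stood at 32.8 FPKM (28.3 to 37.4) in the control, 28.0 FPKM (23.3 to 32.7) in the starved and 37.8 FPKM (31.9 to 43.6) in the siFoxk1 library. Tead1 stood at 24.8 FPKM (20.2 to 29.1), 25.4 FPKM (20.7 to 32.6) and 32.2 FPKM (25.8 to 38.5) in that order. All 3 intervals of each gene overlapped. The ratio bounds for starved against control still allow values from 0.624 to 1.16 for Yap1 and from 0.710 to 1.62 for Tead1. For siFoxk1 against control the ratio was 1.15 (0.853 to 1.54) for Yap1 and 1.29 (0.886 to 1.91) for Tead1. Of the rows in that comparison, 1855 had a higher log2 difference than Tead1 and 9501 a lower one.

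Tead4, a TEAD factor known for its role in muscle differentiation, stood at 4.88 FPKM (3.94 to 5.83) in the control, 2.25 FPKM (1.80 to 2.70) in the starved and 4.73 FPKM (3.75 to 5.72) in the siFoxk1 library. The starved interval lay below the other 2, which overlapped each other. The starved value was 2.17-fold lower than the control as a plain ratio and -0.86 as a log2 difference, short of 2-fold on that scale because the level is low. Tead1 was at 5.09, 11.3 and 6.80 times the level of Tead4 in the control, starved and siFoxk1 libraries.

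In the starved library, then, 5 of the 10 members were lower than the control with intervals apart (Ctgf, Cyr61, Ankrd1, Amotl2 and Tead4) and 0 were higher. Over all 11396 rows compared, 10.9% were lower apart and 12.2% higher apart. At 2-fold or more on the log2 scale, 3 members were lower and 0 higher, beside 3.0% and 3.12% of all rows. The median log2 difference was -0.44 for the members and -0.01 for all rows. Ctgf and Cyr61 lay near the bottom of the whole table, with 26 and 32 of the 11396 rows below them, and Ankrd1 had 72 below it. With both libraries scaled to the same sum of FPKM, 1780 of 11433 rows were higher and 895 lower apart, against 1390 and 1246 as deposited, and 4 members were lower apart.

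In the siFoxk1 library 4 members were higher than the control with intervals apart (Ctgf, Cyr61, Amotl2 and Crim1) and 1 was lower (Ankrd1). Over all 11357 rows, 8.89% were higher apart and 7.13% lower apart. Amotl2 alone among the members reached 2-fold higher and 0 reached 2-fold lower on the log2 scale, where 2.61% and 1.45% of all rows did. Crim1 fell just short of 2-fold higher, with a log2 difference of 0.89 and a plain ratio of 1.995. The median log2 difference was 0.35 for the members and 0.02 for all rows. Amotl2 had 233 rows above it, Crim1 388, Ctgf 538 and Cyr61 803.

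Set directly against the siFoxk1 library, the starved library was lower with intervals apart in 7 of 10 members and higher in 0, where 13.7% of all 11478 rows were lower apart and 13.3% higher apart. The 7 were Ctgf, Cyr61, Ankrd1, Amotl2, Lats2, Crim1 and Tead4. Ctgf was 27.6-fold, Cyr61 20.5-fold, Amotl2 3.24-fold and Ankrd1 2.80-fold lower. Axl, Yap1 and Tead1 had overlapping intervals. The starved and siFoxk1 libraries differ in both siRNA and starvation, which cannot be told apart in this comparison. The alternative settings were not run for it.

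**Figure D2:**
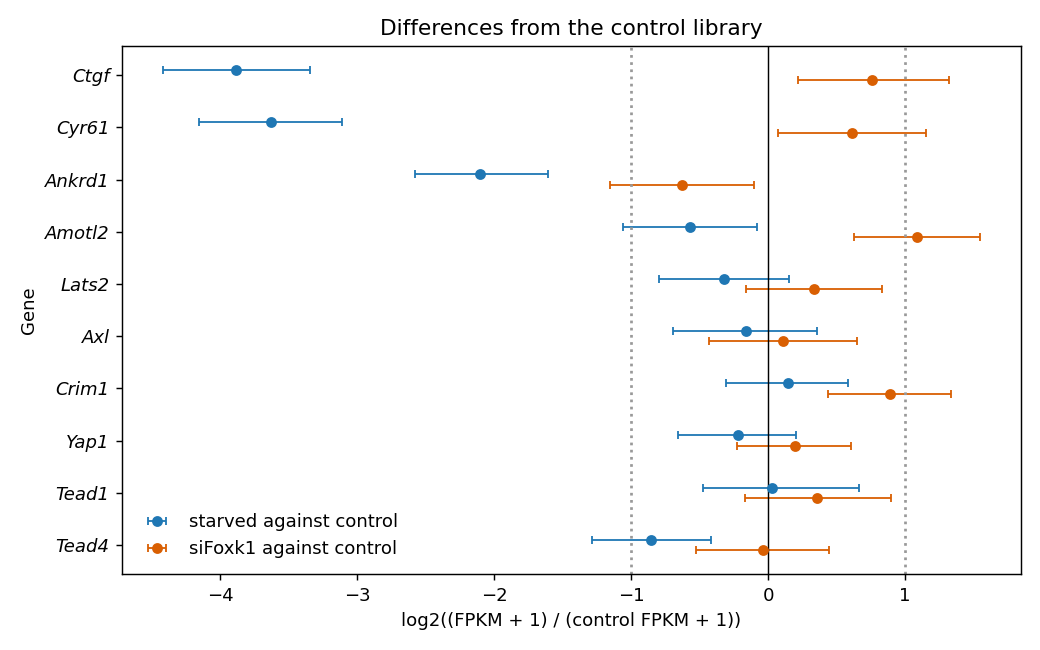
Log2 difference of each member from the control library in the starved (blue) and siFoxk1 (orange) library. Bars run between the differences given by opposite limits of the 95% intervals, and dotted lines mark 2-fold. The starved values of Ctgf (-3.89), Cyr61 (-3.63) and Ankrd1 (-2.10) lie beyond 2-fold, and Amotl2 (1.09) does so in the siFoxk1 library.

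**Figure D3:**
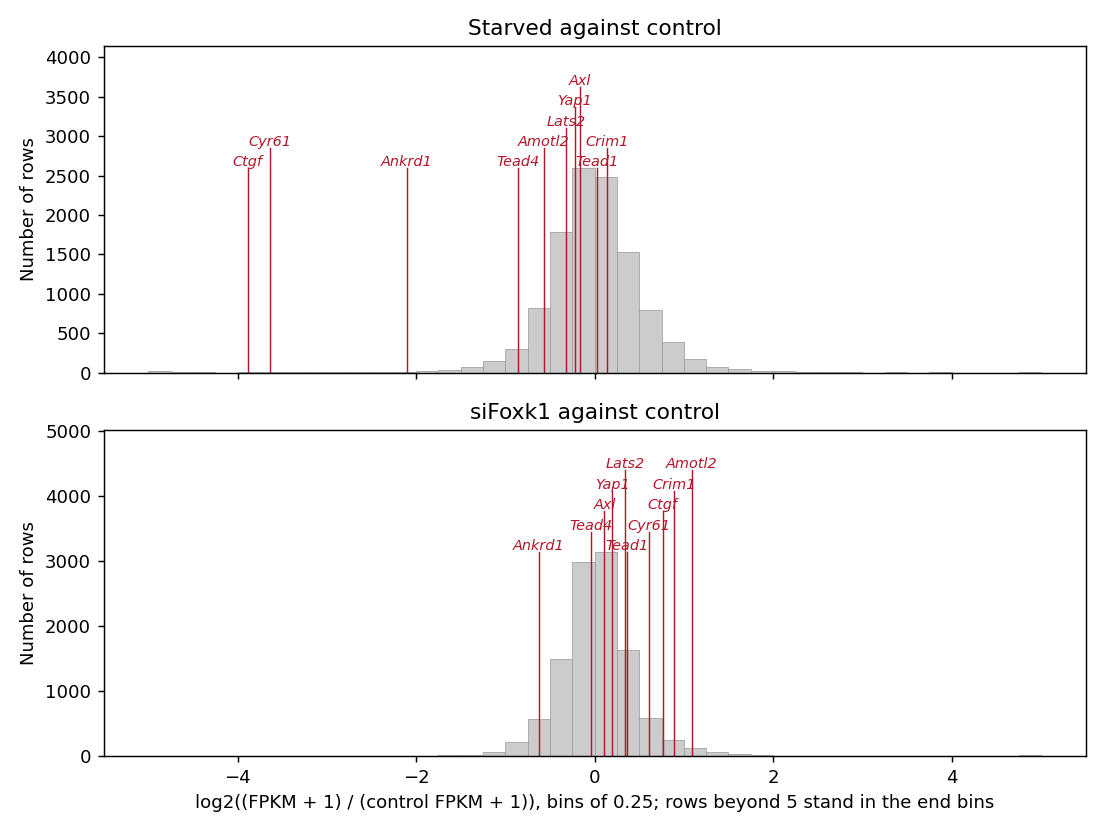
Number of rows (y axis) by log2 difference from the control (x axis, bins of 0.25) over the 11396 rows of the starved and the 11357 rows of the siFoxk1 comparison, with each member marked by a red line whose height carries no value. Ctgf, Cyr61 and Ankrd1 lie in the far lower tail of the starved comparison, and the members lie between -0.63 and 1.09 in the siFoxk1 comparison.

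Ctgf, Cyr61, Ankrd1, Axl, Tead1 and Tead4 were each compared with other single genes by the distance between pairs of log2 differences, starved and siFoxk1. The remaining members were not compared in this way. Candidates were the 8356 genes whose control level reached 5 FPKM, with short RNAs left out. Both differences share the control library, so the measure rests on 3 libraries. The gene nearest to Ctgf was Cyr61, at a distance of 0.29, followed by the semaphorin gene Sema7a (0.37) and the bHLH inhibitor gene Id3 (0.37). The interval bounds of Ctgf itself ran from -4.42 to -3.34 (starved) and from 0.22 to 1.32 (siFoxk1). They are wider than these distances, so the order of its neighbours is not resolved. For Cyr61 the nearest were Sema7a (0.25), Id1 (0.26) and Ctgf. Ankrd1 was nearest to Tmem171 (0.18), the chemokine gene Ccl2 (0.32) and Ccdc85b (0.34). Tead4 was nearest to BC017612, Rrp1b and Ccm2, all within 0.027. The 3 genes nearest to Axl (Mxra7, D10Jhu81e and Rac1) and to Tead1 (Sh3glb1, Zfp623 and Acvr1) were all within 0.012. Both members lie where rows are dense. In the starved comparison 2591 rows lay between -0.25 and 0, as Axl did, and 2483 between 0 and 0.25, as Tead1 did. Of the 15 nearest genes that are not members, 9 had a promoter window, and CATTCC was found in 1, that of Id3. It was found in 12.6% of all windows, and some of these genes have several windows.

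The rest of the Hippo pathway was covered by a list of 22 kinases, scaffolds and upstream cadherins, of which 21 were found as single rows and 19 were expressed. In the starved library 3 were lower apart and 2 higher apart (median log2 difference -0.08), beside 10.9% and 12.2% of all rows. With both libraries scaled to equal sums of FPKM these counts were 2 and 2, with a median of 0.00. The same scaling gave 895 lower and 1780 higher apart over all 11433 rows, and moved their median from -0.01 to 0.08. In the siFoxk1 library 1 was lower and 3 higher (median 0.03), beside 7.13% and 8.89% of all rows. The kinase genes Stk3, Stk4, Lats1 and the scaffold Sav1 had overlapping intervals in both. Wwc1, which encodes the scaffold KIBRA, stood at 1.87 FPKM in the control, 3.29 FPKM in the starved and 0.398 FPKM in the siFoxk1 library, with intervals apart in both comparisons. Frmd6, which encodes a FERM domain protein upstream of the kinases, stood at 40.0, 19.7 and 60.5 FPKM in that order, also apart in both. The protocadherin Fat1 stood at 17.8, 10.6 and 31.4 FPKM and was apart in both. Wwc2 was lower apart in the starved library (21.6 against 31.9 FPKM), though its intervals overlapped with equal sums, and Fat4, at or under 1.67 FPKM throughout, was higher apart in both.

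Among 20 partners of YAP and TEAD, 19 were expressed. In the starved library 3 were lower apart and 2 higher apart (median -0.18, or -0.08 with equal sums), beside 10.9% and 12.2% of all rows. The median of all rows was -0.01, or 0.08 with equal sums. In the siFoxk1 library 4 were higher apart and 0 lower (median 0.26), beside 8.89% and 7.13% of all rows. Wwtr1, which encodes TAZ, had overlapping intervals in both comparisons, at 51.2 FPKM in the control, 41.1 FPKM in the starved and 59.5 FPKM in the siFoxk1 library. The other TEAD genes were higher apart in the siFoxk1 library, Tead2 at 33.8 FPKM against 23.7 FPKM in the control and Tead3 at 22.0 FPKM against 13.3 FPKM. Vgll2 and Vgll3 encode vestigial-like proteins that bind TEAD factors. Vgll2 was lower apart in the starved library (10.4 against 28.3 FPKM), and Vgll3 was higher apart in the siFoxk1 library (38.1 against 14.9 FPKM). The angiomotin gene Amot, a relative of Amotl2, was higher apart in the starved library (16.7 against 10.4 FPKM), and the LIM protein gene Ajuba was lower apart there (15.0 against 23.4 FPKM) and higher apart in the siFoxk1 library (33.8 FPKM). Ywhab, a 14-3-3 protein gene, was lower apart in the starved library at 95.3 against 154 FPKM. The interval of Vgll4 in the siFoxk1 library (44.3 FPKM) overlapped that of the control (31.0 FPKM).

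A list of 28 other genes described as YAP or TEAD targets had 23 expressed members. In the starved library 7 were lower apart and 4 higher apart (median -0.18), beside 10.9% and 12.2% of all rows. With equal sums 25 were expressed, 7 lower and 5 higher apart (median -0.09), beside 895 lower and 1780 higher of all 11433 rows (median 0.08). The largest differences there were opposite in sign: Gadd45a, a growth arrest gene, was higher at 149 against 16.5 FPKM. Areg, an EGF family ligand, was lower at 4.76 against 22.4 FPKM, the thrombospondin Thbs1 at 56.6 against 228 FPKM and the endothelin gene Edn1 at 0.563 against 2.84 FPKM, all apart. In the siFoxk1 library 13 were higher apart and 2 lower apart (median 0.47), beside 8.89% and 7.13% of all rows. Thbs1 was 6.36 times the control there, Igfbp3, an insulin-like growth factor binding protein, 4.44 times and the follistatin-like gene Fstl1 2.74 times. The lower ones were Areg and the mitotic gene Birc5. Of 18 genes of this list with a promoter window, 2 held CATTCC, beside 12.6% of all windows. That share is per window, while some of these genes have several.

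Ctgf and Cyr61 are also known targets of serum response factor (SRF) and its actin-sensing cofactors MRTF, so a list of 25 SRF, MRTF and cytoskeletal genes was read beside them. In the starved library 18 were lower apart and 0 higher (median -0.62), beside 10.9% and 12.2% of all rows. With equal sums 14 were lower, which lost Tagln, Tagln2, Tpm2 and Tpm4. Over all rows that scaling left 895 of 11433 lower apart, against 1246 of 11396 as deposited. In the siFoxk1 library 15 were higher apart and 0 lower (median 0.61), beside 8.89% and 7.13% of all rows. The list was chosen with earlier results of these data known, so its counts are not separate support. Srf itself was apart in both comparisons, with 34.6 FPKM in the control, 16.8 FPKM in the starved and 48.8 FPKM in the siFoxk1 library. Acta2 stood at 333, 110.0 and 1321 FPKM, Actg2 at 46.5, 16.3 and 153 FPKM, and Cnn2, which encodes a calponin, at 238, 114 and 449 FPKM, all apart in both. Actb was lower apart in the starved library (1355 against 3186 FPKM). Tagln and the LIM protein gene Fhl2 were 4.08 and 2.14 times the control in the siFoxk1 library. Reads of near-identical actin genes may be shared among copies. Of the 21 genes of this list with a promoter window, 8 held a CArG box, among them Srf, Vcl and Cnn2. CATTCC was found in 8 of the same 21, Vcl again among them. Over all windows the shares were 1.47% and 12.6%, counted per window, while some of these genes have several.

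**Figure D4:**
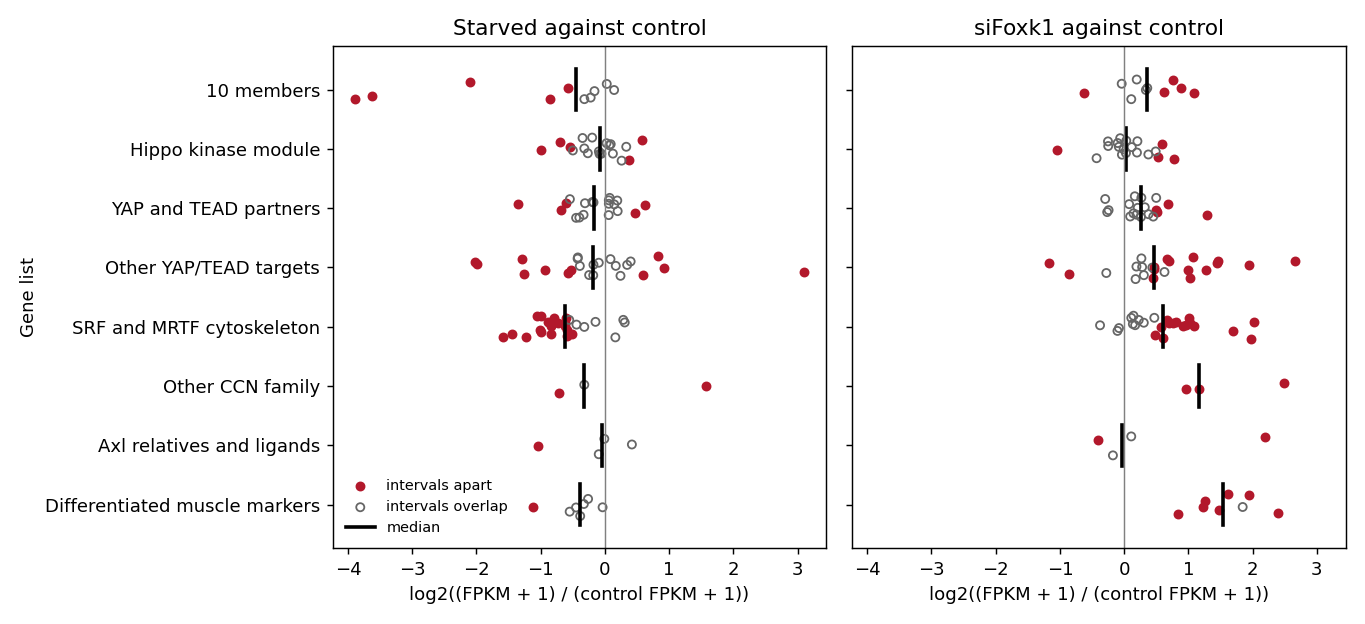
Log2 difference from the control (x axis) of each expressed gene in the members and 7 lists (y axis), in the starved (left) and siFoxk1 (right) library. Filled points have intervals apart from the control, open points overlap, and bars mark medians. The SRF and MRTF cytoskeleton list has medians of -0.62 and 0.61, and the Hippo kinase module -0.08 (0.00 with equal sums of FPKM) and 0.03. All rows have a starved median of -0.01 (0.08 with equal sums).

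Relatives of Ctgf, Cyr61, Ankrd1 and Axl gave mixed values. Of the 4 other CCN genes, Wisp1 stood at 47.4 FPKM (38.2 to 54.7) in the control, 28.6 FPKM (22.2 to 33.1) in the starved and 93.4 FPKM (74.4 to 111) in the siFoxk1 library, all apart. Nov stood at 8.03, 6.23 and 49.9 FPKM, and only the siFoxk1 interval was apart from the control. Wisp2 was higher apart in both, at 0.414, 3.21 and 2.18 FPKM, and Wisp3 was under 0.2 FPKM. The relatives of Ankrd1, Ankrd2 and Ankrd23, were under 1 FPKM in all 3 libraries. Of the relatives and ligands of Axl, the receptor Mertk was lower apart in the starved library (2.08 against 5.31 FPKM), and Tyro3 was lower apart in the siFoxk1 library (4.13 against 5.80 FPKM). The ligand gene Gas6 stood at 2.62 FPKM (2.11 to 3.12) in the control, 3.84 FPKM (3.11 to 4.58) in the starved and 15.5 FPKM (13.0 to 18.1) in the siFoxk1 library. The siFoxk1 interval was apart, and the starved interval, which just overlapped the control, was apart with equal sums. The intervals of the ligand gene Pros1 overlapped.

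Markers of cell state differed between the same libraries. All 8 myoblast markers were expressed, Des at 485, 403 and 520.0 FPKM. Starved cells had 2 of them higher apart, Myf5 (29.6 against 16.8 FPKM) and Musk (17.3 against 10.3 FPKM), and 1 lower apart, Myod1 (10.7 against 70.1 FPKM), with a median log2 difference of 0.35. In the siFoxk1 library Musk was higher apart (17.4 FPKM) and Met lower apart (11.8 against 20.0 FPKM), with a median of 0.08. The intervals of Cdh15 overlapped the control in both. Of 8 markers of differentiated muscle, 7 were higher apart in the siFoxk1 library (all but Tnnt3), where the summed level of the 8 was 186 FPKM. The control had 50.0 FPKM and the starved library 32.0 FPKM for the same sum. In the siFoxk1 library Acta1 was 5.92 times, Mylpf 4.06 times and Myog 3.20 times the control. Tmem8c, which encodes the fusion protein myomaker, was 2.55 times the control there. In the starved library, 1 of the 7 that were expressed was lower apart (Myog, 6.02 against 14.2 FPKM). Over all rows, 10.9% were lower and 12.2% higher apart there, and 7.13% and 8.89% in the siFoxk1 library. The part of these shifts in the values of the members was not tested, and in bulk RNA fewer cells of a type and less RNA per cell cannot be told apart. Endothelial markers summed to at most 0.390 FPKM. The macrophage marker Emr1 and the adipocyte marker Plin1 were listed at 0 in all 3 libraries, and summed levels were 1.37 to 4.20 FPKM for 5 macrophage markers, nearly all Cd68, and 15.9 to 21.9 FPKM for 5 adipocyte markers, nearly all Lpl, higher apart in the siFoxk1 library (8.89 against 4.87 FPKM), and Pparg. Myh11, a defining smooth muscle marker, reached at most 0.0144 FPKM and the fibroblast marker Thy1 at most 0.0128 FPKM. The 6 fibroblast markers summed to 11.2, 13.4 and 31.7 FPKM, mostly Dcn, which was higher apart in the siFoxk1 library, while Pdgfra was higher apart in the starved library (2.63 against 1.41 FPKM). The 5 smooth muscle markers summed to 60.0, 60.9 and 62.7 FPKM, mostly Smtn and Notch3. Among them Notch3 was higher apart in the starved library (26.5 against 15.0 FPKM) and Lmod1 in the siFoxk1 library (2.33 against 0.474 FPKM).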

How the data were processed

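RNA-seq of 3 libraries was used, and the 2 lists of ChIP-seq regions and the input were not used here, since their build mm9 differs from that of the reference tables. Per the file headers, the authors gave a mean FPKM with 95% limits for each gene symbol. Build mm9, Cuffdiff, Cufflinks 2.1.1, TopHat2 2.0.9 and Bowtie2 2.1.0 are named, per the submitters' processing notes, with no role for each. No source used here gives the annotation, any pooling of replicates or the interval method. FPKM holds no read counts, so no count model was run.

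Zzz3 was dropped, since its lower limit exceeded its upper one in the siFoxk1 table, and 22988 rows stayed. Intervals and log2 differences with a pseudocount of 1 FPKM were compared as described above. The scripts (Python 3.11.15, numpy 2.4.6, pandas 2.3.3, matplotlib 3.10.9) were tested on simulated data. Of 147 listed genes 146 were found, 2 of them under older symbols (Mymk as Tmem8c, Adgre1 as Emr1). Genes are named by a rule: all members, Foxk1, up to 4 genes of each list with the largest differences in either comparison (1 of these is not reported here), relatives of members, and the 3 genes nearest to each of 6 members. Others named in the lists (Stk3, Stk4, Lats1, Sav1, Wwtr1, Tead2, Birc5, Srf, Vcl, Tagln2, Tpm2, Tpm4, Des and markers near 0) were picked with their values known. The members and lists were chosen with earlier results of these data known. Alternatives covered the pseudocount, filter, scaling and fold threshold.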

Additional observations from a re-analysis of the deposited data

How the results depend on the processing

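Member differences were recomputed under pseudocounts of 0.1 and 5 and both scalings. The scalings were equal sums of FPKM and the median ratio over rows at 5 FPKM or more. All 80 values stayed within the bounds of their intervals. The scalings multiplied a library by at most 1.07, too little to leave those bounds, so for them this is no check. With a pseudocount of 5 the starved difference of Tead4 was -0.45 against -0.86, still within its bounds. A single interval call changed, that of Amotl2 in the starved library with equal sums (log2 difference -0.47 against -0.57). Equal sums raised the starved median of all rows from -0.01 to 0.08. A filter of 5 FPKM removed Tead4, leaving 4 members lower apart in the starved library, and a pseudocount of 0.1 put 4 members in place of 3 at 2-fold lower. At 1.5-fold, 4 members were higher and 1 lower in the siFoxk1 library, against 1 and 0 at 2-fold. Over all rows of the starved comparison, 356 were 2-fold higher, against 562 and 154 with pseudocounts of 0.1 and 5 and 1175 at 1.5-fold. In the same order of settings, 342 were lower, against 472, 179 and 1085. In the siFoxk1 comparison, 296 were higher, against 438, 148 and 879, and 165 were lower, against 269, 74 and 706. No paired analysis was possible because each group has 1 library. The read depth is unknown.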
